A study of Homo sapiens with 6 samples.

Results

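The 43 genes described here run DNA replication and mitosis in dividing cells, and they were followed in MCF10A cells with raised flotillin 1 and flotillin 2. They were chosen by name from the 52401 genes of the deposited tables, and every one of them was found. By role, 18 act at the G1/S transition and in S phase, and 25 act in G2 and mitosis (G2/M). MCF10A is an immortalised, non-tumorigenic human mammary epithelial line. One group of 3 samples expresses the fluorescent protein mCherry alone (control). The other group of 3 samples co-expresses HA-tagged flotillin 1 and mCherry-tagged flotillin 2 (flotillin), which are scaffold proteins of membrane microdomains. Both lines were made by retroviral infection and share puromycin selection. The flotillin line received a second vector and hygromycin selection as well. Each group is therefore a single stable line, and flotillin level, vector number and drug cannot be told apart. Both lines grew in the same medium with horse serum, insulin, EGF, hydrocortisone and cholera toxin.

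In the cell cycle, cyclin E activates its kinase partner and releases E2F1, a transcription factor for genes of DNA synthesis. The licensing factors CDC6 and CDT1 load the MCM2 to MCM7 helicase ring onto origins, and CDC45 and the GINS complex turn that ring into an active helicase. Cyclins A and B with CDK1 then drive entry into mitosis. There the kinases PLK1, AURKA and AURKB and the spindle checkpoint order chromosome capture, separation and cytokinesis. The genes of both phases are expressed in cycling cells and are low in resting cells, so they are widely used as a measure of proliferation. In bulk RNA, fewer cycling cells and less RNA per cycling cell cannot be told apart.

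Promoters of these genes carry a few short motifs that serve the timing of their expression. The promoters of 5 genes are shown because they display the motif that differs in frequency between the phases, the CHR element in G2/M genes and the E2F site in G1/S genes. Each run holds the 200 bases before the gene's start, 5′ to 3′ on the gene's strand, from RefSeq in GRCh38.p14. Capitals mark every match, on either strand, to 1 of 3 motifs. The CHR element was searched as TTTGAA. A second form of that element was searched as TTCGAA. The CCAAT box was searched by the letters of its name. The E2F site was searched in 4 forms, TTTCGCGC, TTTGGCGC, TTTCCCGC and TTTGCCGC. On the opposite strand these letters read as their reverse complement. The runs lie at chr1:43358781-43358980, plus strand (CDC20), chr15:59104946-59105145, plus strand (CCNB2), chr16:23678689-23678888, plus strand (PLK1), chr2:135876444-135876643, minus strand (MCM6) and chr7:100101398-100101597, minus strand (MCM7, the first of its 3 listed starts).
CDC20: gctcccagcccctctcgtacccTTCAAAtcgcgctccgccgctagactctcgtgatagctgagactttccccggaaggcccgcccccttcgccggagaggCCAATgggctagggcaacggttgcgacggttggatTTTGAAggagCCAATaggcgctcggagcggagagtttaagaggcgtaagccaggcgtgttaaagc
CCNB2: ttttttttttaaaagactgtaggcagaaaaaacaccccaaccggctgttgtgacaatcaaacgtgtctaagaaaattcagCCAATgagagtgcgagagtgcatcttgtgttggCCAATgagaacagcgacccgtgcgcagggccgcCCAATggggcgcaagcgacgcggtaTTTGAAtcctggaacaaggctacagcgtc
PLK1: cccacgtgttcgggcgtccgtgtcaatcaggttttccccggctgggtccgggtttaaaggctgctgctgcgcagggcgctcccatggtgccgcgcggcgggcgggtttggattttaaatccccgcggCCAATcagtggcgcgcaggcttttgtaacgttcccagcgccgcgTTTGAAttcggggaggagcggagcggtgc
MCM6: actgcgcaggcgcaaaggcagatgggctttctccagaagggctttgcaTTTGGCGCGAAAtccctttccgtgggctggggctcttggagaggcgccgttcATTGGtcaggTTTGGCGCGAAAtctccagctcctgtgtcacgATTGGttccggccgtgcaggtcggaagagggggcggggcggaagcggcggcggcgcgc
MCM7: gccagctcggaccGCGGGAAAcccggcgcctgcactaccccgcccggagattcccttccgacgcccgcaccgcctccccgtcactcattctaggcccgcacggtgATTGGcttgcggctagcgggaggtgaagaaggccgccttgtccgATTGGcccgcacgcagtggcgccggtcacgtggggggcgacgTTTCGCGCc

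In the G2/M examples, the CHR letters TTTGAA lie close to a CCAAT box, and in MCM6 an E2F match runs into a second one on the other strand. The TTTGGCGC and reverse TTTCGCGC matches of MCM6 overlap in the run TTTGGCGCGAAA, which occurs at 2 places. Over windows from 250 bases before to 50 after the start, 34 of the 43 genes had an entry. A CHR match was in 13 of 19 G2/M genes (68.4%) and 2 of 15 G1/S genes (13.3%), beside 19.5% of all 27305 genes listed. MCM6, printed above for its E2F matches, is among those 2 G1/S genes, and its CHR match lies outside the printed bases. An E2F match was in 10 of 15 G1/S genes (66.7%) and 3 of 19 G2/M genes (15.8%), beside 3.99% of all genes. A CCAAT match was in 10 of 15 and 16 of 19, beside 39.7% of all genes. CHR and CCAAT matches occurred together in 12 of the 19 G2/M genes (63.2%), beside 9.02% of all genes. These matches describe letters in a window only.

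The deposited tables hold group means only, but the whole counts of the 3 libraries behind each mean could be recovered for 99.7% of means above 0 in each group, and for all 43 genes here. The means that were not recovered are high ones. They hold 19.3% of the normalized counts in control and 18.3% in flotillin cells, and the library totals leave them out. Since the libraries carry no replicate number, they are called 1 to 3 within their group from the highest to the lowest size factor. The same number in both groups is therefore not a stated pair. The deposited group labels alternate the sample numbers between the lines, but they do not say which recovered library is which sample. Whether samples of the lines were handled in pairs was not tested. Their recovered counts had been multiplied by a factor between 0.865 and 1.36 and rounded, and the unscaled totals behind them are estimated at 14928875 to 23289648 counts per library in the recovered genes. FLOT1 lay at 1898, 1359 and 1166 normalized counts (counts divided by the size factor) in control libraries 1 to 3 and at 17243, 14137 and 18932 in flotillin libraries 1 to 3. FLOT2 had authors' means of 3727 and 41052. Gene-level counts do not separate introduced from endogenous transcripts. Of 10 mammary epithelial markers 9 were tested in the authors' deposited table, and 6 of them, CDH1 and TP63 included, fell in the flotillin line. KRT18 was listed at 0 in both lines, and KRT5 had authors' means of 48381 and 67351. Of the immune markers, PTPRC, CD3E, CD3D and MS4A1 were under 5 normalized counts in every library, and CD14, CD68 and CSF1R ranged from 61.7 to 1652. Of 5 endothelial markers, CDH5, VWF and CLDN5 were under 5, and KDR and TEK ranged from 22.7 to 850.2. Of 9 fibroblast markers 6 were tested, and DCN, LUM and PDGFRB were higher and COL1A1 lower in the flotillin line, while THY1 was listed at 0. The part of these markers in the results was not tested. Whether the samples within a group were grown as independent cultures is not stated, so the p-values refer to a spread among samples that may be technical. Library 3 of both groups stood apart from libraries 1 and 2 in the genes described here, and the calls between the lines are also given without it after the values of the single genes.

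None of the 43 genes passed the test between the lines. The authors' deposited table of means called 0 of the 41 genes that have an adjusted p higher and 0 lower (threshold 0.05), while 23.6% of 19733 genes passed, 11.6% higher and 12% lower. No member had an unadjusted p under 0.05 there, and the smallest adjusted p was 0.216, for the thymidylate synthase gene TYMS. The authors' deposited table gives no p-value for MYBL2 and KIF20A. In the second deposited table, made with the Tuxedo tools, the authors called 0 of 43 at a q-value under 0.05, where 16.9% of 17022 genes passed, and its smallest q-value here was 0.0533, for PCNA. A limma fit to the log2 of each recovered library's normalized counts, with 1 added, also called 0 of 43. It had 0 members at an unadjusted p under 0.05, and 23.4% of 15907 genes passed an adjusted p of 0.05. The standard error (SE) of its log2 fold change ran from 0.33 (MCM7) to 1.28 (MYBL2) over the 43 genes. With such a spread, the absence of calls does not show that these genes were unchanged.

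Most of the estimates nevertheless pointed up. The log2 fold change of flotillin over control in the authors' deposited table was above 0 for 36 of 41 genes, from -0.50 (MCM7) to 0.91 (TYMS). Its median was 0.33 over 17 G1/S genes and 0.30 over 24 G2/M genes, beside -0.040 over all genes tested and 0.11 over genes with a mean of at least 100. In the limma fit of the libraries the medians were 0.63 and 0.78, beside 0.044 over all genes fitted. The 2 fits do not give the same measure. limma averages log2 values over libraries, while the deposited log2 fold changes are smaller in size than the ratio of their own means. For KIF20A the deposited means were 2186 in control and 4315 in flotillin cells, with a deposited log2 fold change of 0.57. In none of the 43 genes did the 3 flotillin libraries lie wholly above or wholly below the 3 control libraries, while 24.2% of the 15907 genes did so upward and 21.1% downward. In each of the 43, control library 3 lay above flotillin libraries 1 and 2, and flotillin library 3 lay above control library 1. With library 3 included the groups could therefore not separate, and this count does not measure a difference between the lines.

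Library 3 held far more cell cycle transcripts than libraries 1 and 2 in each line. In 41 of the 43 genes it was, in each line, at least 2-fold above the average of the other pair of libraries, as were 3.46% of all 15907 genes. The exceptions were MCM7, at 1.26-fold in control, and CCNE1, at 1.83-fold in flotillin cells. The median ratio of library 3 to the mean of libraries 1 and 2 in control cells was 4.24 for G1/S genes and 5.94 for G2/M genes. In flotillin cells the medians were 3.22 and 4.24. The medians over all genes fitted were 1.02 and 1.00. Among the 25 G2/M genes this ratio ran from 4.0 to 9.19 in control and from 2.96 to 6.45 in flotillin cells.

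The remaining libraries differed by line. Control library 2 was above control library 1 in 42 of 43 genes, by a median of 1.92-fold. CDT1 was the exception at 0.911-fold. Flotillin libraries 1 and 2 lay close together: library 2 was above library 1 in 14 of 18 G1/S genes and in 4 of 25 G2/M genes, with median ratios of 1.06 and 0.944. Summed over the 43 genes, control libraries 1 to 3 held 24677, 48322 and 171540 normalized counts and flotillin libraries 1 to 3 held 53255, 50227 and 201906. The estimated unscaled totals were 14928875, 19357666 and 21757905 in control and 20407776, 22465250 and 23289648 in flotillin libraries 1 to 3. Their part in these differences was not tested.

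**Figure D1:**
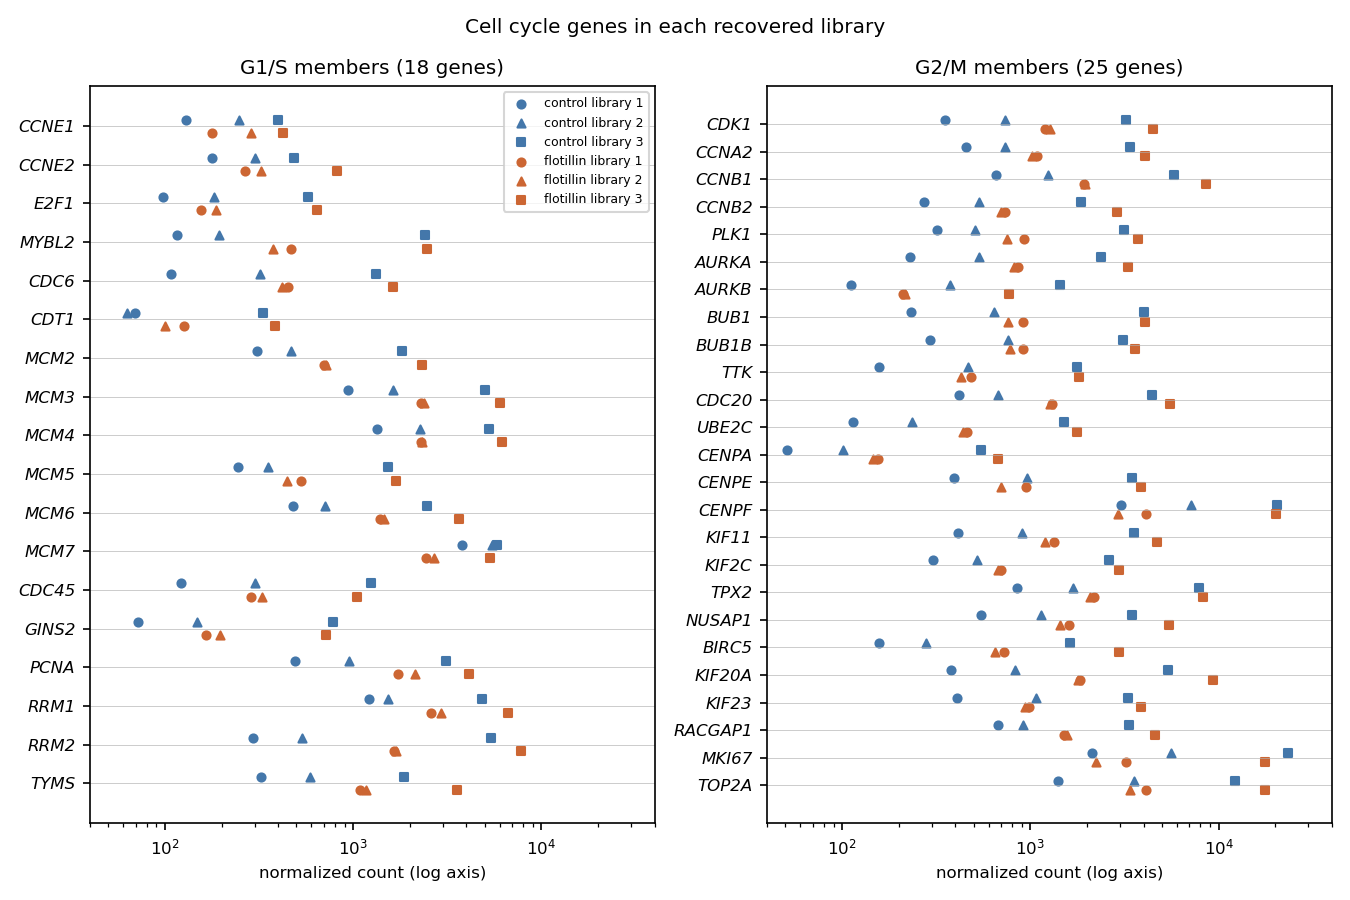
Normalized counts (log axis) of the 18 G1/S and 25 G2/M genes in each recovered library, with control in blue and flotillin in orange and 1 symbol per library number. The squares of library 3 lie to the right in both groups, and control library 1 is the lowest of the 6 in 40 of 43 genes.

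**Figure D2:**
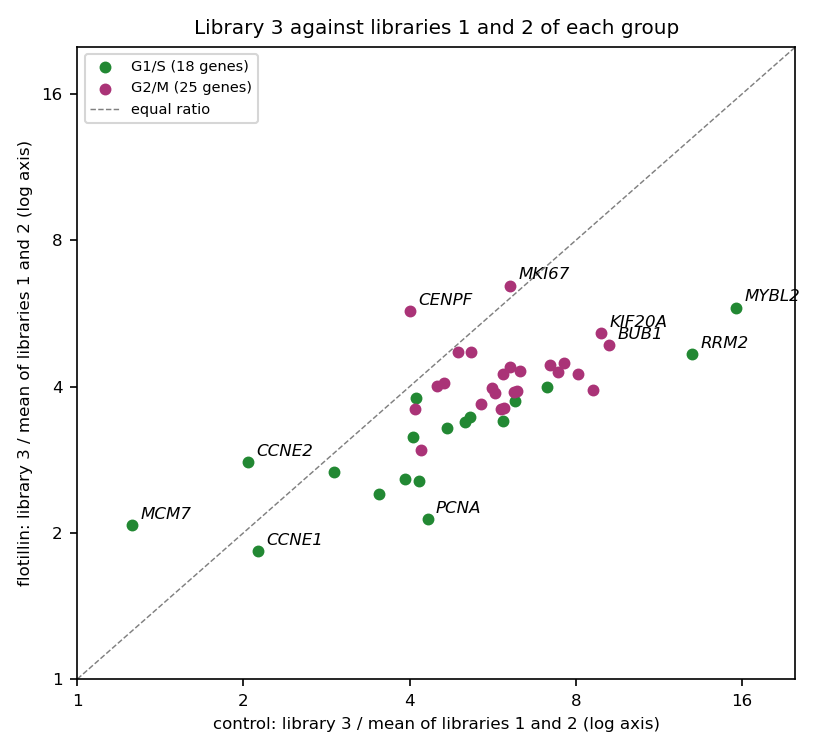
Ratio of library 3 to the mean of libraries 1 and 2 for each of the 43 genes, control on the x axis and flotillin on the y axis, both log axes, with 1 point per gene and a dashed line of equal ratio. Points below the line mark 39 of 43 genes, with MYBL2 and RRM2 far to the right and MCM7 at the left edge.

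Across the 43 genes, the log2 ratio of library 3 to libraries 1 and 2 in control went with that in flotillin cells (Pearson's r = 0.74, Spearman's rho = 0.70, a description over genes that share the same 6 libraries).

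Among the G1/S genes, the cyclin E genes differed less between libraries than most. CCNE1, which encodes cyclin E1, lay at 129, 247 and 399.8 in control libraries 1 to 3 and at 178, 288 and 427 in flotillin libraries 1 to 3. CCNE2 (cyclin E2) lay at 178, 299 and 488 and at 267, 324 and 826. Library 3 was the highest of its group for both genes, and the ranges of the groups overlapped. Their log2 fold changes in the authors' deposited table were 0.18 (adjusted p = 0.796) and 0.49 (adjusted p = 0.459).

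The transcription factor genes differed strongly between libraries. E2F1 lay at 97.7, 182 and 575 in control and at 155, 186 and 647 in flotillin libraries 1 to 3. MYBL2 encodes B-MYB, an E2F target that itself activates mitotic genes (chromosome 20, 42295797 to 42345136, GRCh37). It lay at 116, 194 and 2419.8 in control and at 470.0, 375 and 2458 in flotillin libraries. Library 3 was, relative to the mean of libraries 1 and 2, 15.6-fold in control and 5.82-fold in flotillin cells, the largest such ratio of the 43 genes in control. The 2 libraries numbered 3 were nearly level, and the gap between the lines lay in libraries 1 and 2. Its limma log2 fold change was 0.99 ± 1.28 (SE; adjusted p = 0.588, limma).

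Origin licensing and fork genes formed the largest G1/S group, with 11 members. CDC6, an ATPase that loads the helicase, lay at 107, 318 and 1322 in control and 449, 421 and 1622 in flotillin libraries 1 to 3. CDT1, its partner in loading and the member with the lowest FPKM (per-length level, 2.51 in control and 3.13 in flotillin cells), lay at 69.3, 63.1 and 334 and 126, 100.3 and 383. In both genes control library 3 and flotillin library 3 lay above all other libraries.

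Of the 6 helicase genes MCM2 to MCM7, 5 had both libraries 3 above all other libraries. MCM6 lay at 482, 708 and 2477 in control and 1386, 1450.0 and 3630.1 in flotillin libraries 1 to 3, with a limma log2 fold change of 1.04 ± 0.66 (SE; adjusted p = 0.276, limma). MCM2, MCM3, MCM4 and MCM5 had limma log2 fold changes between 0.35 (MCM4) and 0.71 (MCM2). Each MCM gene but MCM7 was lowest in control library 1 and highest in flotillin library 3.

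MCM7 stood apart from the other helicase genes. It had the highest FPKM of the licensing and fork genes (209 in control and 131 in flotillin cells) and lies at chromosome 7, 99690351 to 99726118 (GRCh37), a locus that the table joins with AP4M1, TAF6 and the microRNA genes of the mir-106b cluster, whose reads can be uncertain where they overlap. MCM7 lay at 3794, 5493 and 5842 in control and at 2443, 2683 and 5320.2 in flotillin libraries 1 to 3. Control library 3 was only 1.26-fold above libraries 1 and 2, and flotillin libraries 1 and 2 were the lowest of the 6. The log2 fold change was -0.50 (adjusted p = 0.306) in the authors' deposited table and -0.60 ± 0.33 (SE; adjusted p = 0.204, limma) over the recovered libraries.

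The later fork genes also had their highest counts in library 3 of each line, but their changes between the lines differed. CDC45, which joins the active helicase, lay at 121, 302 and 1249.9 and 288, 327 and 1046, and GINS2, a subunit of the GINS complex, at 72.1, 148 and 783 and 166, 196 and 721 in control and flotillin libraries 1 to 3. PCNA, the sliding clamp of the polymerases, lay at 491, 945 and 3097 in control and 1723, 2133 and 4112 in flotillin libraries. For PCNA every flotillin library was above control libraries 1 and 2, and flotillin library 3 was above all control libraries. CDC45 and GINS2 were instead highest in control library 3. Log2 fold changes in the authors' deposited table were -0.0073 (adjusted p = 0.995) for CDC45 and 0.069 (adjusted p = 0.958) for GINS2. For PCNA it was 0.70 (adjusted p = 0.341).

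Genes of nucleotide supply lay higher in flotillin libraries 1 and 2 than in control libraries 1 and 2. RRM2, the regulated subunit of ribonucleotide reductase (chromosome 2, 10262455 to 10271545, GRCh37), lay at 293, 533 and 5367 in control and 1640.2, 1684 and 7745 in flotillin libraries 1 to 3. The mean of flotillin libraries 1 and 2 was 4.03-fold that of control libraries 1 and 2, the highest such ratio of the 43 genes, and library 3 differed 1.44-fold. RRM1, the large subunit, lay at 1220.0, 1526 and 4825 and 2606, 2929 and 6658. TYMS, which makes thymidylate, lay at 325, 588 and 1855 and 1093, 1177 and 3582, and its library 3 was 1.93-fold higher in flotillin than in control, the largest such ratio among the members. Over all 6 libraries the limma log2 fold change was 1.23 ± 0.72 (SE; adjusted p = 0.239, limma) for TYMS and 1.56 ± 1.21 (SE; adjusted p = 0.373, limma) for RRM2.

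Among the G2/M genes, the mitotic cyclins and kinases moved almost in parallel across libraries. CDK1, the kinase that drives mitotic entry, lay at 354, 737 and 3201 in control and 1199, 1275 and 4455 in flotillin libraries 1 to 3. CCNB1, its cyclin B1 partner and the member of this group with the highest FPKM (113 in control and 169 in flotillin cells), lay at 657, 1247 and 5789 and 1937, 1962 and 8568. CCNB2, whose promoter with 3 CCAAT boxes and a CHR is printed above, lay at 271, 534 and 1860.0 and 730.1, 698 and 2899. In these genes the order was control library 1, control library 2, flotillin libraries 1 and 2, and then both libraries 3, with flotillin library 3 highest.

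The same order held for the other mitotic kinases with 1 exception. PLK1, which acts at centrosomes and kinetochores, lay at 319.7, 509 and 3160.2 and 929, 749.8 and 3747, and AURKA, the spindle pole kinase, at 229.6, 531 and 2378 and 862, 819 and 3289. AURKB, the catalytic subunit of the chromosomal passenger complex (chromosome 17, 8108051 to 8113936, GRCh37), lay at 111, 372 and 1434 in control and 210.0, 216 and 771 in flotillin libraries 1 to 3. Its flotillin libraries 1 and 2 lay below control library 2, and flotillin library 3 was 0.538-fold control library 3, the lowest such ratio of the 43 genes. The log2 fold change of AURKB was -0.44 (adjusted p = 0.696) in the authors' deposited table.

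Spindle checkpoint and anaphase genes had some of the largest library ratios. BUB1, a checkpoint kinase, lay at 233, 642 and 4020.1 and 916, 759 and 4080.4 in control and flotillin libraries 1 to 3. CDC20, the activator of the anaphase-promoting complex, lay at 416, 676 and 4410.1 and 1305, 1278 and 5493, and UBE2C, the ubiquitin-conjugating enzyme of that complex, at 115, 236 and 1509.5 and 458, 437 and 1764. For BUB1, flotillin library 3 was 1.01-fold control library 3. BUB1B and TTK, the other checkpoint kinases, had library 3 ratios of 5.90-fold in control and 4.24-fold in flotillin cells and 5.64-fold in control and 3.98-fold in flotillin cells.

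Kinetochore and spindle genes differed among themselves. BIRC5 encodes survivin, a non-catalytic subunit of the passenger complex, and lay at 157, 280.2 and 1625 in control and 728, 649 and 2952 in flotillin libraries 1 to 3. CENPF, a large kinetochore protein gene with the highest FPKM of this group (72.8 in control and 63.8 in flotillin cells), lay at 3030.2, 7119 and 20303 and 4099, 2911 and 20074. For BIRC5, flotillin libraries 1 and 2 lay above control libraries 1 and 2, and flotillin library 3 was highest. For CENPF, flotillin libraries 1 and 2 lay below control library 2, and both libraries 3 were near each other. CENPA, the centromeric histone H3 gene, lay at 51.2, 101.4 and 548 and 156, 146 and 669. CENPE, KIF11, KIF2C, TPX2 and NUSAP1, a motor of chromosome capture, 2 further kinesins and 2 microtubule-binding proteins, had limma log2 fold changes from 0.33 (CENPE) to 0.85 (NUSAP1), with SEs of 0.77 to 0.92.

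Among cytokinesis genes, KIF20A, a kinesin of the central spindle, lay at 380.4, 825 and 5353 in control and 1837, 1779 and 9329 in flotillin libraries 1 to 3. Its locus is joined in the table with BRD8 and CDC23. KIF23, the kinesin of the centralspindlin complex, lay at 409, 1067 and 3306 and 985, 935 and 3848, and its partner RACGAP1 at 669.8, 913 and 3321 and 1517, 1573 and 4580.0. All 3 were highest in flotillin library 3 and lowest in control library 1.

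The chromatin genes TOP2A and MKI67 are abundant proliferation markers. TOP2A, the topoisomerase that untangles sister chromatids, lay at 1409, 3563 and 12156 in control and 4100.4, 3385 and 17642 in flotillin libraries 1 to 3. MKI67, the gene of the Ki-67 antigen (chromosome 10, 129894923 to 129924649, GRCh37), lay at 2124, 5552 and 23331 and 3236, 2230.2 and 17633. Here control library 3 was the highest of all, and flotillin library 2 lay near control library 1. The mean of MKI67 was 10336 ± 11384 normalized counts for control and 7699.9 ± 8617 for flotillin (SD over 3 libraries), with a log2 fold change of -0.26 (adjusted p = 0.833) in the authors' deposited table.

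Without library 3 of both groups, members passed in both phases. limma on libraries 1 and 2 called 9 of 18 G1/S genes and 13 of 25 G2/M genes higher in flotillin, 22 of 43 in all, where 23.6% of 15907 genes were called higher. It called 1 member lower, MCM7, where 20.6% of all genes were called lower. The median log2 fold change of libraries 1 and 2 was 0.84 for G1/S and 0.95 for G2/M genes, beside 0.038 over all genes. RRM2 had a log2 fold change of 2.07 ± 0.28 (SE; adjusted p = 8.24e-04, limma), BIRC5 1.71 ± 0.29 (SE; adjusted p = 0.00180, limma), KIF20A 1.69 ± 0.35 (SE; adjusted p = 0.00894, limma) and MCM7 -0.83 ± 0.21 (SE; adjusted p = 0.0102, limma). Of the genes given above with all 6 libraries, MYBL2 passed here with 1.48 ± 0.29 (SE; adjusted p = 0.00368, limma), as did MCM6 with 1.28 ± 0.22 (SE; adjusted p = 0.00164, limma) and TYMS with 1.37 ± 0.28 (SE; adjusted p = 0.00522, limma). The other genes called higher were MCM2, MCM3, MCM5, PCNA, RRM1, CDK1, CCNA2, CCNB1, CCNB2, PLK1, AURKA, CDC20, UBE2C, CENPA, KIF2C and RACGAP1. In 31 of 43 genes both flotillin libraries lay above both control libraries, as in 39.4% of all genes, and in 1 gene both lay below, as in 36.2%. This comparison rests on 2 libraries per line, and leaving out library 3 was planned with earlier results of these data known. Library 3 is also the library that stood apart in these same genes. The smaller spread and the adjusted p-values therefore depend on leaving it out and are no separate support for a rise.

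Single libraries moved these values. The flotillin over control ratio had a median over the 43 genes of 1.81 for the means of libraries 1 and 2 and 1.20 for library 3. Taken singly, the median was 2.69 for library 1 and 1.32 for library 2. These numbers are ranks by size factor and not pairs, so the single-library ratios depend on the numbering. The median ratio of library 2 to library 1 was 1.92 in control and 0.956 in flotillin cells. Leaving out control library 1 alone brought the median limma log2 fold change to 0.13 for G1/S and 0.075 for G2/M genes. Leaving out flotillin library 3 alone brought it to 0.064 and 0.058, with MCM7 called lower, as were 7.76% of all genes. Leaving out control library 3 alone gave medians of 1.40 and 1.56, with 5 G1/S genes and 1 G2/M gene called higher, as were 22% of all genes. Leaving out library 1 or library 2 of both groups, an alternative chosen after seeing the data, left 0 of 43 called, where 1.63% and 1.96% of all genes passed. With a term that sets library 3 of both groups apart in the model, which is no replicate block and was also chosen after seeing the data, 8 G1/S and 14 G2/M genes were called higher and 1 G1/S gene, MCM7, lower, as were 24.6% and 21.5% of all genes.

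**Figure D3:**
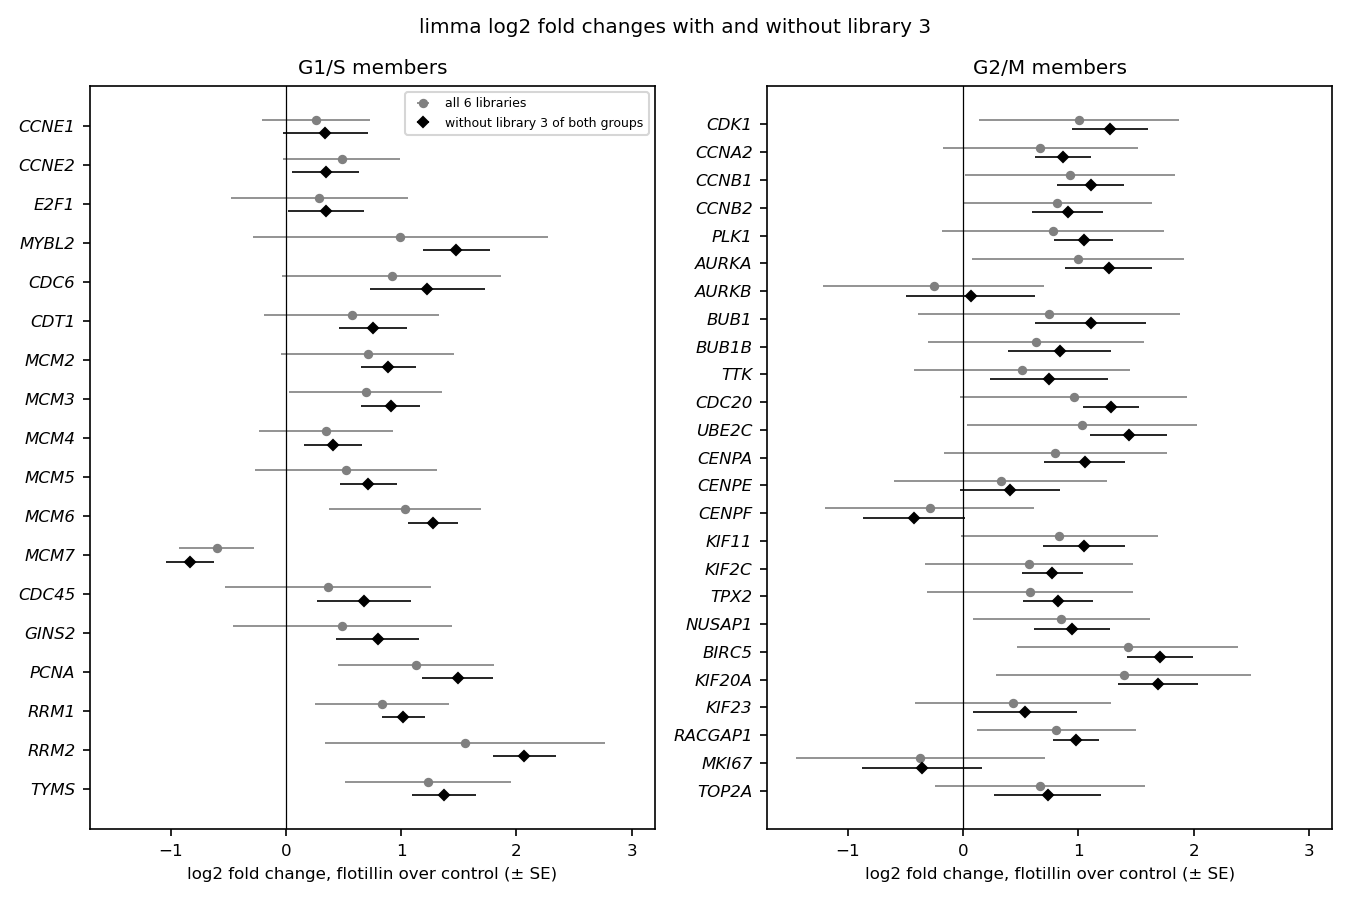
limma log2 fold changes of flotillin over control (± SE) for each member, with all 6 libraries in grey circles and without library 3 of both groups in black diamonds. The error bars shrink without library 3, most values stay above 0, and MCM7 lies below 0 in both fits.

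Ratios between 2 genes, or between an MCM gene and the other MCM genes, were also computed within each library. None of the 12 ratios passed a test, and they were chosen after their values were seen, so they are a description only. The groups did not overlap in 6 of them. How often ratios of other genes separate in this way was not computed. Among single genes, 24.2% of 15907 separated upward and 21.1% downward, but that is another measure and gives no expected share for ratios. The 6 are therefore not read as marking these genes out. The two-sided exact permutation test over the 6 libraries cannot go below p = 0.1 (adjusted p = 0.2 over the 12 for those 6). AURKB relative to AURKA was 0.483, 0.701 and 0.603 in control libraries 1 to 3 and 0.244, 0.264 and 0.234 in flotillin libraries 1 to 3. AURKB relative to BIRC5, its partner in the passenger complex, was 0.709, 1.33 and 0.882 in control libraries 1 to 3 and 0.288, 0.333 and 0.261 in flotillin libraries 1 to 3. In both ratios all flotillin libraries lay below all control libraries, with means 0.415-fold and 0.302-fold those of control.

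MKI67 and CENPF were set against a gene of similar role. MKI67 relative to TOP2A was 1.51, 1.56 and 1.92 in control libraries 1 to 3 and 0.789, 0.659 and 0.999 in flotillin libraries 1 to 3. CENPF relative to CENPE was 7.70, 7.44 and 5.83 in control libraries 1 to 3 and 4.33, 4.15 and 5.16 in flotillin libraries 1 to 3. All flotillin libraries again lay below all control libraries, with means 0.491-fold and 0.651-fold those of control.

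Some ratios followed library 3. RRM2 relative to RRM1 was 0.240, 0.349 and 1.11 in control libraries 1 to 3 and 0.629, 0.575 and 1.16 in flotillin libraries 1 to 3. MCM7 relative to the geometric mean of MCM2 to MCM6 was 7.04, 6.48 and 2.06 in control libraries 1 to 3 and 2.01, 2.23 and 1.52 in flotillin libraries 1 to 3. Control libraries 1 and 2 were high and control library 3 lay within the flotillin range, so the groups overlapped (two-sided exact permutation p = 0.2). MCM6 relative to the other 5 genes was 0.592, 0.555 and 0.736 in control libraries 1 to 3 and 1.02, 1.06 and 0.961 in flotillin libraries 1 to 3. MCM3 relative to the other 5 was 1.32, 1.52 and 1.73 in control libraries 1 to 3 and 1.86, 1.92 and 1.76 in flotillin libraries 1 to 3. For MCM6 and MCM3 all flotillin libraries lay above all control libraries, by 1.62-fold and 1.22-fold in the mean, and MCM7 is part of the denominator in both.

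**Figure D4:**
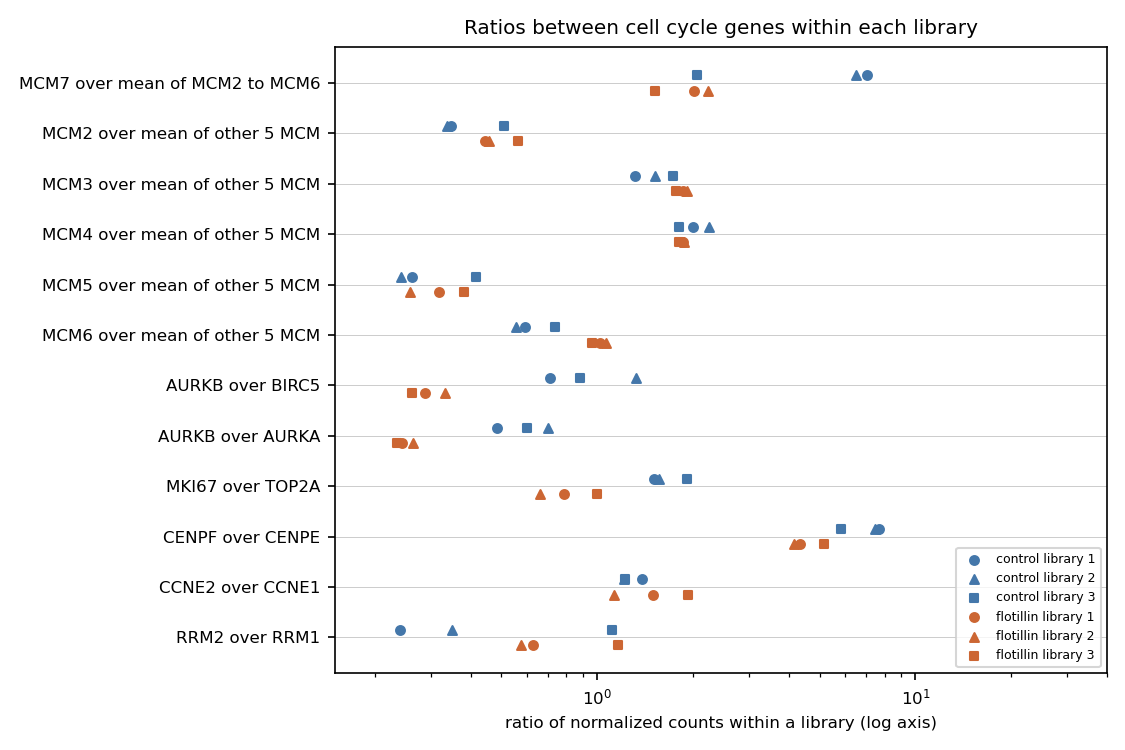
The 12 ratios of normalized counts computed within a library (log axis), with control in blue and flotillin in orange and 1 symbol per library number; means of MCM genes are geometric. For AURKB over AURKA and over BIRC5 the flotillin points lie wholly to the left of the control points, and for MCM6 wholly to the right.

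Further cell cycle genes, outside the 43, mostly did not pass. Of 31 further G1/S genes 2 were higher and 1 lower in the authors' deposited table, where 11.6% of all genes were higher and 12% lower, with a median log2 fold change of 0.26. SLBP, the histone mRNA binding protein gene, lay at 557, 670.4 and 1146 in control and 1153, 1519.9 and 1886 in flotillin libraries 1 to 3, with a log2 fold change of 0.89 (adjusted p = 0.0389) in the authors' deposited table. limma over all 6 recovered libraries called 0 of these 31 genes higher and 1 lower, beside 12.2% and 11.1% of all genes. The other rise was UNG, a uracil glycosylase gene named because the count is small. In limma SLBP had an adjusted p of 0.0535, and of 0.00258 without library 3 of both groups. CDCA7, a MYC and E2F target, lay at 1834, 3146 and 2438 and 762, 726 and 1607, with a log2 fold change of -1.18 (adjusted p = 0.00880) in the authors' deposited table. In limma its adjusted p was 0.0311, 0.00133 without library 3 of both groups and 0.00952 to 0.115 over fits that left out 1 library, and the call was lost without control library 1 or 2 and without flotillin library 1 or 2. Of 34 further G2/M genes with an adjusted p 0 passed, with a median of 0.29. The Tuxedo table called 3 of 35 higher and 1 lower, beside 6.93% and 10% of all genes. Without library 3 of both groups, limma called 12 of 31 further G1/S genes and 14 of 35 further G2/M genes higher, and 1 and 2 lower, beside 23.6% of all genes higher and 20.6% lower.

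The regulators around these genes mostly did not pass. Of 15 origin and licensing genes 0 passed in the authors' deposited table, with a median of 0.07, and limma without library 3 of both groups called 2 higher and 4 lower, beside 23.6% and 20.6% of all genes. Of 17 E2F, RB and DREAM complex genes 0 passed there, with a median of 0.31, and 4 were called higher without library 3 of both groups, a share near the 23.6% of all genes. Of 19 genes of the anaphase-promoting complex and the spindle checkpoint 1 was higher, beside 11.6% of all genes. This was MAD1L1, a checkpoint scaffold gene, at 161, 159 and 217 in control and 276, 304 and 349 in flotillin libraries 1 to 3, with a log2 fold change of 0.76 (adjusted p = 0.0212) in the authors' deposited table and a q-value of 0.496 in the Tuxedo table. In limma its adjusted p was 0.0448, 0.0169 without library 3 of both groups and 0.0155 to 0.132 over fits that left out 1 library, and the call was kept only without control library 3.

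Upstream are the D cyclin and CDK inhibitor genes. The authors' deposited table tested 11 of these 13 genes, and called 4 higher and 1 lower, beside 11.6% and 12% of all genes. CCND1, the cyclin D1 gene, lay at 1407, 1797 and 2753 in control and 7118, 6495 and 7595 in flotillin libraries 1 to 3, with no overlap and a log2 fold change of 1.75 (adjusted p = 1.24e-07) in the authors' deposited table. CCND2 (cyclin D2) lay at 1495, 1456 and 1267 and 277, 268 and 138, also with no overlap, and a log2 fold change of -2.50 (adjusted p = 8.06e-14) in the authors' deposited table. Without library 3 of both groups the limma adjusted p was 5.53e-05 for CCND1 and 2.59e-05 for CCND2. The other rises in the authors' deposited table were the inhibitor genes CDKN1A, CDKN1C and CDKN2C, named because the count is small. CDKN1A lay at 2598, 1855 and 3188 and 7335, 8739.6 and 5973 and was highest in flotillin library 2. CDKN2A and CDKN2B were under 5 normalized counts in every library.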

How the data were processed

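RNA of 3 control and 3 flotillin samples was measured with a stranded mRNA kit, per the labels' protocols, and samples were grouped by their titles. The submitters' processing notes name HISAT2 2.1.0, HTSeq 0.9.1, DESeq2 1.18.1 and GRCh37. The counting strand and annotation release are not stated in the labels. The authors deposited, per the file headers, group means (signal, counts divided by size factors), log2 fold changes with p-values and adjusted p-values, and a Tuxedo table with FPKM, log2 fold changes, a test score and q-values.

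Each mean of 3 libraries is a sum of whole counts times 3 fixed steps, so an exhaustive search gave the counts. Of 2000 altered means per group, 0.5% and 0.35% had a solution, and a test on simulated data recovered 100% of 2000 means per group. Low counts showed regular gaps or pile-ups, such as 25 genes at 2 and 1280 at 3 in control library 1. A search over multiplication and rounding gave factors of 1.36, 1.04 and 0.940 for control libraries 1 to 3 and 0.935, 0.888 and 0.865 for flotillin libraries 1 to 3 (largest error on simulated data 0.007). The whole counts are thus scaled counts, not reads, and the unscaled totals are estimates. No count test was run: the deposited columns hold means, and the counts recovered from them are scaled and rounded. limma 3.58.1 (R 4.3.3; trend, robust, Benjamini-Hochberg adjustment over all genes fitted) was run on log2(normalized count + 1) for 15907 recovered genes with a mean of at least 10. Python 3.11.15 with numpy 2.4.6, scipy 1.17.1 and pandas 2.3.3 did the rest, and matplotlib 3.10.9 drew the plots.

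The 43 genes and all lists were chosen with earlier results of these data known. Genes are named by rule: in each of 9 role lists, members past an adjusted p of 0.05 and those with the highest and lowest FPKM, and in other lists the largest rise and fall that passed; other members were added for their role or after their values were seen. ORC1 to ORC6 and TUBB4B were matched by Ensembl ID, and PECAM1 was not matched. An immune marker of the lists is not reported here. Alternatives were another deposited pipeline, thresholds, pseudocounts (0.5, 5), filters (none, 100), scalings and left-out libraries.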

Additional observations from a re-analysis of the deposited data

How the results depend on the processing

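No paired analysis was possible because no replicate number goes with a recovered library, and the term for library 3 is no replicate block. The count of 0 members called in the authors' deposited table was also 0 in the Tuxedo table, at a mean of at least 100, at an adjusted p under 0.1 and with limma. In limma it stayed at 0 with pseudocounts of 0.5 and 5, with no filter, with a filter at 100, with both other scalings and without the trend and robust options. Over all these settings 12.4% to 30.6% of all genes were called. Library choice changed it. Leaving out 1 library in turn gave 0 to 5 G1/S genes and 0 to 1 G2/M genes higher. It gave 0 to 1 G1/S genes lower (MCM7, without flotillin library 3). Those fits called 2.22% to 22% of all genes higher and 4.05% to 18.3% lower. Without library 3 of both groups, 9 G1/S genes and 13 G2/M genes were higher and 1 G1/S gene lower, beside 23.6% and 20.6% of all genes. With a term for library 3 the counts were 8, 14 and 1, beside 24.6% and 21.5% of all genes. Without library 3 of both groups, limma also called genes of the other lists, beside the same 23.6% higher and 20.6% lower. Higher and lower were 12 and 1 of 31 further G1/S genes, 14 and 2 of 35 further G2/M genes and 2 and 4 of 15 origin genes. They were 4 and 0 of 17 E2F, RB and DREAM genes and 7 and 2 of 19 anaphase-promoting complex and checkpoint genes. Of the 11 D cyclin and inhibitor genes fitted they were 7 and 2. With all libraries limma called 0 further G1/S genes higher, beside 12.2% of all genes. The Tuxedo table called 3 further G2/M genes higher and 1 lower, beside 6.93% and 10% of all genes. The cause was not tested.

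Directions of single genes also turned with the libraries. Over fits that each left out 1 library, the limma log2 fold change ran from -1.16 to 0.68 for AURKB, -0.16 to 1.53 for BUB1B, -0.17 to 0.64 for CCNE1, -0.011 to 0.84 for CCNE2, -0.016 to 1.34 for CDT1, -1.14 to 0.42 for CENPF, -0.35 to 0.99 for E2F1, -0.30 to 1.21 for KIF23, -1.28 to 0.55 for MKI67 and -0.080 to 1.48 for TOP2A. Without library 3 of both groups AURKB had 0.066, and without library 2 of both groups AURKB had 0.010, CENPF 0.21 and MKI67 0.10. With both libraries 1 left out, and then both libraries 2, limma gave adjusted p-values of 0.179 and 0.281 for CDCA7, 0.283 and 0.274 for MAD1L1, 0.215 and 0.327 for SLBP, 0.0725 and 0.0926 for CCND1 and 0.0304 and 0.0503 for CCND2. SLBP had 0.00690 to 0.156 over fits that left out 1 library. The lowest value of any member was 51.2 normalized counts (CENPA, control library 1), and the spread over 3 libraries per line limits these comparisons.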

Other observations

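The values below were singled out after they were seen. Further genes also stood apart in library 3 of both lines. Among the 50 genes with the largest ratios upward in both groups (mean of at least 100), 27 were in the cell cycle lists, 10 of them members. The others include mitosis and replication genes that the lists do not hold, such as CENPI, SPC25, KIF14, NCAPH and TK1. Of the 50 with the largest ratios downward 0 were in the lists. Among the upward ones were also the smooth muscle contractile genes MYL9, at 10.4, 11.5 and 98.7 in control and 117, 64.9 and 754 in flotillin libraries 1 to 3, and TAGLN, at 93.0, 72.7 and 680.2 and 125, 76.0 and 2625. Among the downward ones was CFB, the complement factor B gene, at 12536, 13377 and 1172 and 3651, 9045 and 778, and SOD2, the mitochondrial superoxide dismutase gene, at 12267, 11765 and 1315 and 8749.9, 19056 and 2334.

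TNS3, a focal adhesion adaptor gene, had a count of 0 in library 3 of both groups, beside 1673 and 1786 normalized counts in control libraries 1 and 2 and 4525 and 4828 in flotillin libraries 1 and 2.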
